A study of Rattus norvegicus with 49 samples.

Results

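Thyroid gene expression 9 months after injection of 131I was compared between the higher and the lower injected activities, without the untreated controls. The arrays were taken by their labels: 8 arrays from rats given 50 or 500 kBq (4 at each activity, here the high-activity arm) and 7 arrays from rats given 0.5 or 5 kBq (4 and 3, the low-activity arm). These are 15 of the 49 arrays of the series. All 15 came from male Sprague Dawley rats that were injected intravenously at 5 weeks of age and killed at 10 months of age, and each array was hybridised with Cy3-labelled total RNA from the flash-frozen thyroid of 1 rat. The design gave 4 rats to each activity, and 3 arrays at 5 kBq were analysed here. For background, the values of 4 arrays from untreated male rats of 10 months of age are given beside the comparison, and they entered none of its tests.

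The thyroid takes up iodide through the sodium/iodide symporter and couples it to thyroglobulin in its follicles, and 131I is concentrated and retained there by the same route. Thyroglobulin is a large secreted protein that is folded in the endoplasmic reticulum with the help of chaperones, and follicular cells are rich in that machinery. A thyroid removed from the rat can carry C cells, parathyroid tissue and pieces of its neighbours, among them muscle, fat, trachea and its cartilage, so markers of each were listed. In whole tissue, fewer cells of a type and less RNA per cell cannot be told apart.

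The markers of follicular thyrocytes were present on all 15 arrays. Thyroglobulin (Tg), the precursor of thyroid hormone, had a log2 signal, taken throughout as the distance from the 75th percentile of all spots on that array, between 6.41 and 7.65 in the high arm (median 7.08) and between 6.53 and 7.56 in the low arm (median 7.05), against 7.12 to 7.45 in controls. The arms overlapped, with a log2 difference (high minus low, as throughout) of 0.10 (standard error 0.19, exact permutation p = 0.629). The iodide symporter Slc5a5, the thyrotropin receptor Tshr and the transcription factor Pax8 differed by 0.11, -0.42 and 0.07 on the log2 scale (standard errors 0.39, 0.45 and 0.42), and all were well above background on 15 arrays. Slc26a4, the anion exchanger pendrin, had no tested probe.

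Arrays were scanned on 3 dates, here scan 1, 2 and 3 in order of time. Scan 1 held 2 arrays at 50 kBq and 4 of the low arm, scan 2 held 3 arrays at 500 kBq and 1 at 5 kBq, and scan 3 held 3 high and 2 low arrays. Each scan thus held both arms, and differences within each scan are given beside the results. In scan 3 all high arrays were on 1 slide and both low arrays on another. Arm and slide thus cannot be told apart within scan 3, and within scan 2 the low arm is 1 array. Between 70.1% and 77.3% of spots were well above background in the high arm and between 72.8% and 80.7% in the low arm.

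No transcript was called at high against low activity. Of 23116 probes tested in one limma fit, 0 passed an adjusted p below 0.01 with a fold change above 1.5 (0% of probes), and 0 had an adjusted p below 0.05. At an unadjusted p under 0.05, 713 probes (3.08%) differed, where 1155.8 would be found by chance. Of these, 563 (2.44% of all probes) were higher and 150 (0.649%) were lower in the high arm, so that 79.0% were higher. A fold change above 1.5, whatever its p, was found for 691 probes higher (2.99%) and 265 lower (1.15%) in the high arm. With quantile normalization higher probes were 54.1% (305 higher and 259 lower), and with normexp background correction 92.2% (1112 and 94), so the excess of higher probes depended on the scaling. The smallest adjusted p was 0.0906, for Arrdc2. The number of arrays limits the precision of all values. The plot of all probes tested shows the cartilage genes to the right, far out but at moderate p, and the chaperone and macrophage genes all on the left.

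**Figure D1:**
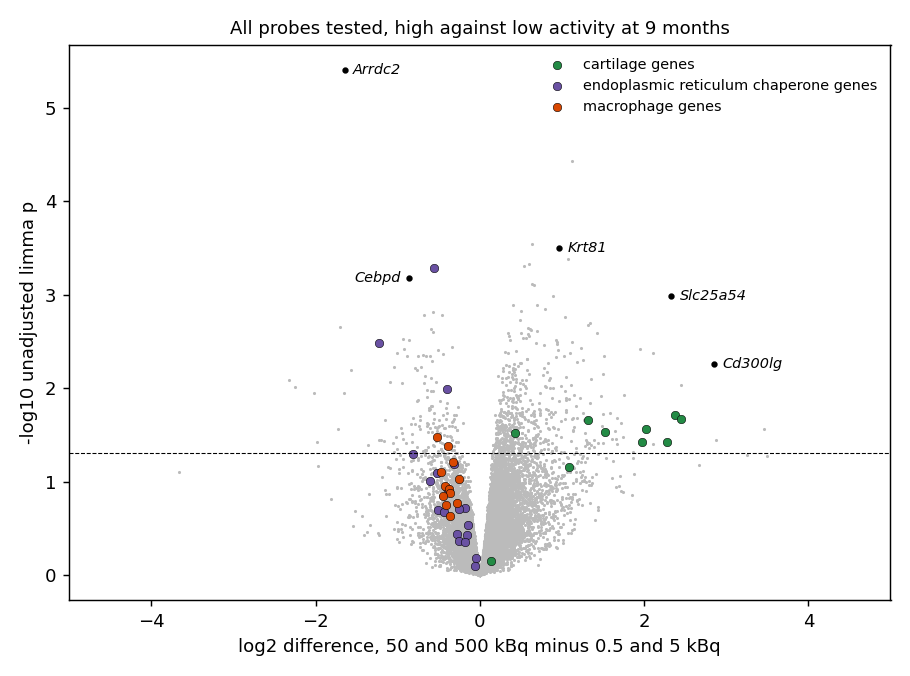
Each of the 23116 tested probes by its log2 difference between the high and low arm (x axis) and -log10 of its unadjusted limma p (y axis). The dashed line marks an unadjusted p of 0.05. Arrdc2 lies at the top left at a log2 difference of -1.65, and coloured points are the tested genes of the cartilage, chaperone and macrophage lists on their brightest probe.

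Arrdc2, which encodes an arrestin domain protein, was the transcript that separated the arms best. Its log2 signal lay between -4.58 and -3.54 in the high arm (median -4.15) and between -3.47 and -1.72 in the low arm (median -2.52). All 8 high-activity arrays lay below all 7 low-activity arrays. The mean was -4.19 ± 0.35 (SD, n = 8) against -2.54 ± 0.58 (SD, n = 7), a log2 difference of -1.65 (standard error 0.23) or 3.13-fold (p = 0.000155 by two-sided exact permutation over 6435 splits of the arrays, which can give no smaller value). This p takes no account of the choice of Arrdc2 out of all probes, over which its limma adjusted p was 0.0906. The log2 difference was -2.18, -0.73 and -1.55 within scans 1, 2 and 3. Within the high arm 500 minus 50 kBq was -0.01, and within the low arm 5 minus 0.5 kBq was -0.27 (exact permutation p = 1 and 0.600). Controls spanned -4.56 to -2.51 and so reached into the range of both arms.

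Of all probes, 5 (0.0216%) had arms that did not overlap, 3 with the high arm above (0.013%) and 2 with it below (0.00865%). They were named after their values were seen. With 6435 splits of the arrays and 23116 probes, a few probes with separate arms would be found by chance alone. Besides Arrdc2, the probe A_64_P085058, matched to no gene symbol, was lower (log2 difference -0.46, standard error 0.12). Higher were Kcna6, a voltage-gated potassium channel, on probe A_44_P915100 (between -6.17 and -5.15 against -7.39 and -6.29, log2 difference 1.12), Ctxn1, which encodes cortexin (0.34, between -2.87 and -2.17 against -3.20 and -2.87), and the unnamed probe A_44_P246202 (0.22). For Kcna6 the brighter probe, A_64_P384267, did not follow: its log2 difference was 0.28 with a standard error of 0.21, and the arms overlapped.

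Cebpd and Fkbp5 were among the other genes lower at high activity by more than 1.5-fold. Cebpd, a transcription factor of the C/EBP family, lay between 1.55 and 3.17 in the high arm (median 2.16) and between 2.68 and 3.24 in the low arm (median 3.14). A single high-activity array, 50 kBq replicate 3, lay inside the range of the low arm. The log2 difference was -0.86 (standard error 0.20, exact permutation p = 0.00218), and it was -1.08, -0.69 and -0.76 within the 3 scans. For Fkbp5, a co-chaperone of steroid hormone receptors, values ran from -1.11 to 0.05 (median -0.68) in the high arm and from -0.52 to 0.88 (median 0.00) in the low arm, so the ranges overlapped. Its log2 difference was -0.69 (standard error 0.21, exact permutation p = 0.00528), with controls between -0.80 and -0.66, at the level of the high arm. The controls of Cebpd spanned 1.55 to 3.40, the range of both arms.

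The other genes of this direction by the rule for named genes were Cyria, a regulator of Rac signalling, with -0.69 (standard error 0.18), C9h6orf141 with -0.93 (0.27), Rgcc, a regulator of the cell cycle, with -0.75 (0.22), Igsf6, an immunoglobulin superfamily member, with -0.61 (0.18) and Derl3, described below with the chaperones. Their arms overlapped, and their exact permutation p lay between 0.00342 and 0.00870. Outside the rule, Errfi1, a feedback inhibitor of the EGF receptor, was lower by a log2 difference of -0.57 (standard error 0.15) and Tob2, an antiproliferative protein, by -0.56 (0.15). All of these were lower within each of the 3 scans, and none passed the adjustment over all probes (limma adjusted p = 0.99979 for each).

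Of the 8 genes named as higher at high activity by more than 1.5-fold, 5 were not well above background on every array. Krt81, a hair keratin, lay between -5.52 and -4.05 in the high arm (median -4.77) and between -6.15 and -5.37 in the low arm (median -5.57), and was well above background on all 15 arrays. In the high arm 50 kBq replicate 3 alone lay within the range of the low arm. The log2 difference was 0.97 (standard error 0.21, exact permutation p = 0.000777), and it was 1.13, 1.35 and 0.43 within the scans. Krt87, another hair keratin, differed by 1.04 (standard error 0.28), with 6 of 8 high and 3 of 7 low arrays well above background. Metrn, which encodes the secreted protein meteorin, lay between -2.24 and -1.83 (median -2.03) in the high arm and between -3.72 and -2.22 (median -2.57) in the low arm, with all but 1 low-activity array below the high arm. Its log2 difference was 0.70 (standard error 0.18, exact permutation p = 0.000311), its steps within the arms were 0.00 and 0.27, and controls lay between -2.82 and -2.46, at the level of the low arm.

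Slc25a54, a mitochondrial carrier gene, had the largest log2 difference of this group, 2.33 (standard error 0.57), but was well above background on only 4 of 8 high and 1 of 7 low arrays. Slc25a54 thus passed the filter only through the high arm, and its direction adds no support. Its values spanned -7.20 to -4.47 (median -6.02) against -9.54 to -5.77 (median -8.90), and the 0.5 kBq array at -5.77 lay among the high-activity arrays. Fam229a and Kiss1r, the kisspeptin receptor, differed by 0.64 and 0.66 (standard errors 0.15 and 0.16), Ppm1k, a mitochondrial phosphatase, by 0.59 (0.16) and Atp6v1g2, a subunit of the vacuolar proton pump, by 1.42 (0.39). Atp6v1g2 was also higher on its second, dimmer probe, by 0.60 (standard error 0.13). Among the 563 higher probes, 33.2% were not well above background on every array, compared with 29.3% of the 150 lower probes and 19.6% of the probes with a p of at least 0.05.

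**Figure D2:**
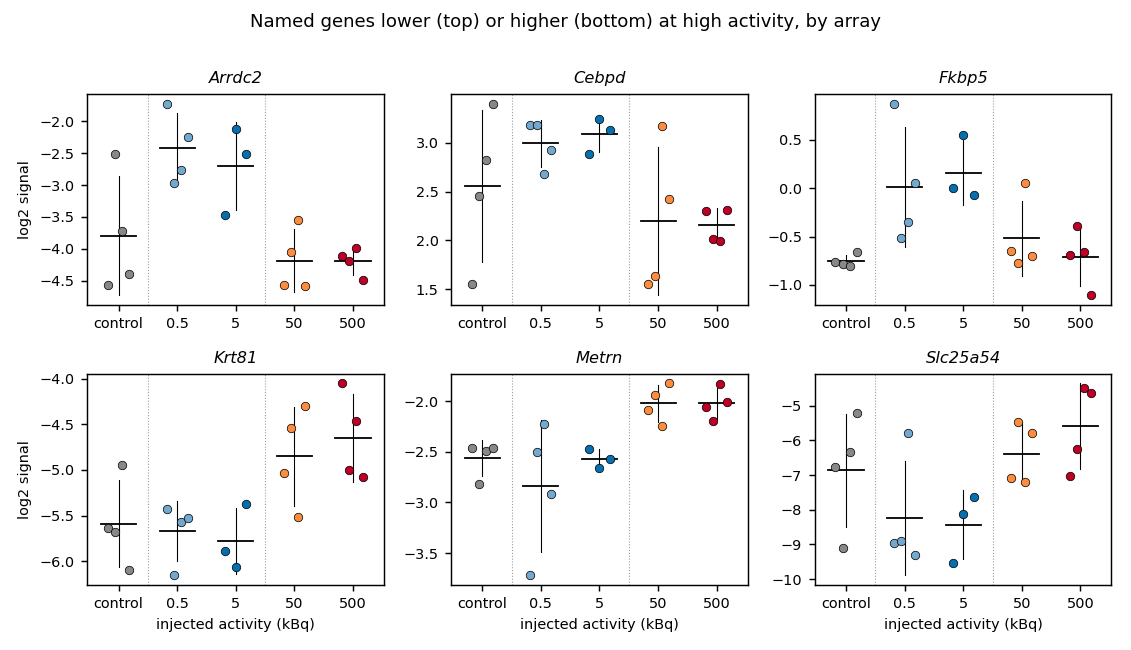
Log2 signal relative to the array's 75th percentile (y axis) of 6 named genes in each array, by injected activity in kBq (x axis), with the mean (horizontal line) and SD (vertical line) of each group. Arrdc2 is the 1 gene shown whose 50 and 500 kBq arrays all lie below the 0.5 and 5 kBq arrays, and controls, which were not tested, lie left of the first dotted line.

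The endoplasmic reticulum chaperone list holds chaperones, other genes of folding and quality control of secreted proteins, and the transcription factors Xbp1 and Ddit3. It is named after its chaperones, and its genes are called so for short. Of its 21 genes 19 were tested, and all 19 had a lower mean in the high arm, where 61.9% of all 12295 genes tested had a higher one. The median log2 difference was -0.31, against 0.04 over all genes. It was -0.37, -0.83 and -0.03 within scans 1, 2 and 3, and -0.47 without 0.5 kBq replicate 4. At an unadjusted p under 0.05, 3 of the 19 were lower and 0 higher, against 0.838% lower and 2.01% higher over all genes, and 0 passed the adjusted threshold. The 3 were Herpud1 and Derl3, which serve protein degradation, and the transcription factor Ddit3, so none of them is itself a chaperone.

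Promoters are shown for 4 of these genes because part of the list holds a sequence feature named for endoplasmic reticulum stress. The list was chosen for endoplasmic reticulum function, so this feature is not independent of the choice of its members. The RefSeq promoter sequences run over the 250 bases before the annotated start (rat build GRCr8), and capitals mark the fixed letters of the ER stress element, CCAAT and CCACG with 9 bases between them, or, in Herpud1, of the ER stress element II, ATTGG and CCACG with 1 base between them. Both motifs were searched on both strands, and in Derl3 and Creld2 the match is on the opposite strand, where its capitals read CGTGG and ATTGG. The windows are chr19:10614708-10614957 on the minus strand, chr20:12766466-12766715 on the minus strand, chr7:121789134-121789383 on the plus strand and chr3:38452766-38453015 on the plus strand, each written 5′ to 3′ in the direction of the gene.
Herpud1: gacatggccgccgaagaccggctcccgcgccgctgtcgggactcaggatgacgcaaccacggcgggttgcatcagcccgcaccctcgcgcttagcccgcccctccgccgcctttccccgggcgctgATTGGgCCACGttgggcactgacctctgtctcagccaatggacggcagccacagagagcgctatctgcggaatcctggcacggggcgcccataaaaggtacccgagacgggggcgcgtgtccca
Derl3: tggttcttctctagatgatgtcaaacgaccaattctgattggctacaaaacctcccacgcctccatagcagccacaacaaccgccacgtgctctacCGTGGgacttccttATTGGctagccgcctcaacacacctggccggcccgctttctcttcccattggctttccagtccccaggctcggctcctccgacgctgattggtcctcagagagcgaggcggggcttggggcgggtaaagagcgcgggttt
Creld2: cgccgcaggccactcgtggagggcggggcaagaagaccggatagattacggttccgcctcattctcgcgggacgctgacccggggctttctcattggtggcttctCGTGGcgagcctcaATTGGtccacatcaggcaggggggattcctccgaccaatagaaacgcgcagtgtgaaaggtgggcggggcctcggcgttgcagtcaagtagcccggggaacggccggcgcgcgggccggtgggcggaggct
Hspa5: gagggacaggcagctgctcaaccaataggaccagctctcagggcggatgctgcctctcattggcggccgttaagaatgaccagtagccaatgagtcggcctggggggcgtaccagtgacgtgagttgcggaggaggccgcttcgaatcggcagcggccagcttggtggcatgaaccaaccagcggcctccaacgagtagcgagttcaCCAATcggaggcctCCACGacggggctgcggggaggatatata

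The ER stress element stood in 8 of 19 promoter windows of the list (42.1%), those of Calr, Canx, Creld2, Derl3, Dnajc3, Hsp90b1, Hspa5 and Xbp1, compared with 22 of 33469 windows of all genes (0.0657%). The second element stood in 2 of 19 windows, those of Herpud1 and Hyou1, compared with 14 of all windows (0.0418%). A match is a description of the sequence and not evidence of use in these thyroids.

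Herpud1, a component of endoplasmic reticulum-associated degradation, lay between 2.10 and 2.60 in the high arm (median 2.44) and between 2.49 and 3.32 in the low arm (median 2.94). A single low-activity array, 0.5 kBq replicate 4, lay within the range of the high arm. The log2 difference was -0.56 (standard error 0.13, exact permutation p = 0.000777), similar within the scans at -0.59, -0.68 and -0.48. Derl3, a channel protein of the same degradation pathway, lay between -0.17 and 1.32 (median 0.25) against 0.38 and 2.64 (median 1.91), with overlapping arms and a log2 difference of -1.23 (standard error 0.35, exact permutation p = 0.00870). Ddit3, the stress-induced transcription factor CHOP, differed by -0.41 (standard error 0.14). Hspa5, the chaperone BiP, lay between 3.95 and 4.95 against 3.79 and 5.26, with a log2 difference of -0.40 (standard error 0.24). Creld2, Sdf2l1 and Hyou1 differed by -0.81, -0.60 and -0.52 (standard errors 0.38, 0.34 and 0.28), and Xbp1, the transcription factor of the unfolded protein response, by -0.18 (0.13).

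The 2 activities of the low arm were not alike in this list. The median log2 difference of 5 minus 0.5 kBq was 0.64, while that of 500 minus 50 kBq was -0.18. Against 5 kBq the medians were -0.65 at 50 kBq and -0.79 at 500 kBq, and against 0.5 kBq they were 0.09 and -0.11. These pairs share their arrays and are given side by side. Derl3 had a 5 minus 0.5 kBq step of 1.31 and Herpud1 one of 0.47 (exact permutation p = 0.0857 and 0.0286, the latter the smallest that 3 against 4 arrays allow). Controls lay between -0.23 and 1.09 for Derl3, near the high arm, and between 2.44 and 3.38 for Herpud1, across both arms.

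The 2 low-activity arrays lowest for the chaperones were also the lowest for thyroid hormone synthesis genes. The mean deviation of the 14 tested thyroid hormone synthesis genes was lowest in the low arm on 0.5 kBq replicates 1 and 4 (-0.85 and -0.79), where that of the chaperones was -0.39 and -0.71. On the other 2 arrays at 0.5 kBq it was 0.19 and 0.46, where that of the chaperones was 0.42 and 0.30, and on the 3 arrays at 5 kBq it was 0.66, 0.55 and 0.26, where that of the chaperones was 0.68, 0.56 and 0.59. Leaving out 0.5 kBq replicates 1 and 4, an alternative chosen after seeing the data, raises the low arm in both lists by construction, so its direction is no result. The chaperone median was then -0.66 with 17 of 19 genes lower at an unadjusted p under 0.05, in a fit where 1034 of all 23116 probes were lower and 925 higher. With all 15 arrays the synthesis genes had a median of -0.12, 0 of 14 at a p under 0.05 and 10 of 14 below 0. The part of thyrocyte content in the chaperone result was not tested.

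**Figure D3:**
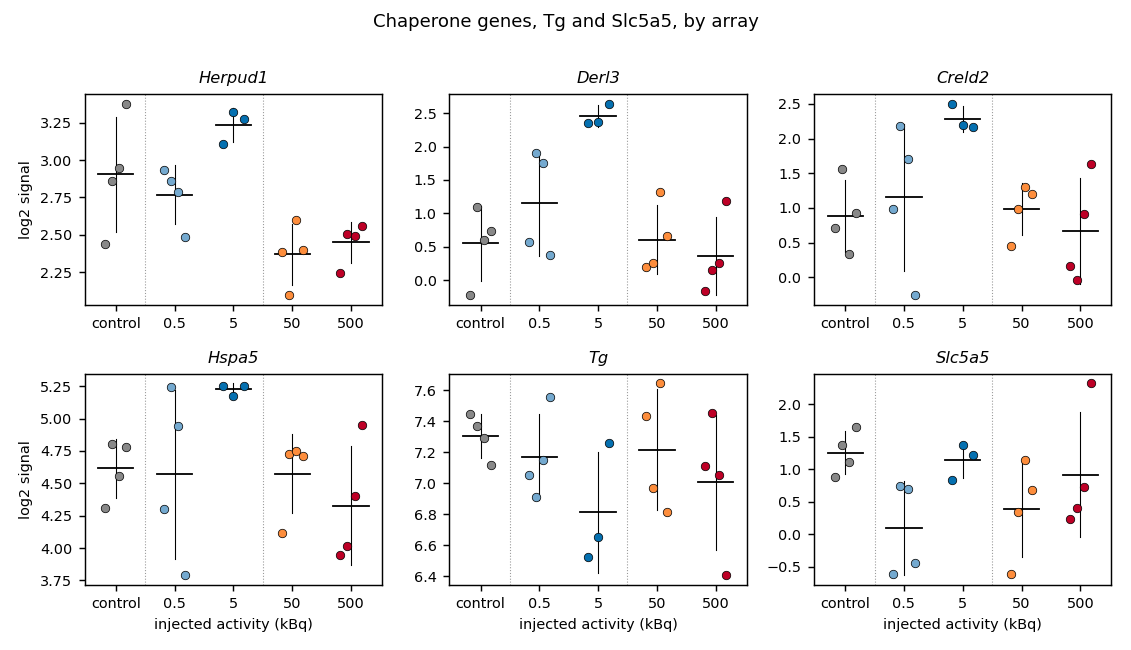
Log2 signal relative to the array's 75th percentile (y axis) of 4 chaperone-list genes and of Tg and Slc5a5 in each array, by injected activity in kBq (x axis), with the mean (horizontal line) and SD (vertical line) of each group. The 3 arrays at 5 kBq are the highest group for Herpud1, Derl3, Creld2 and Hspa5, and 2 of the 4 arrays at 0.5 kBq lie within the range of the high arm for Derl3.

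Cartilage genes had the largest median of the 33 lists, 1.75, and 3 arrays carried it. All 10 tested genes had a higher mean in the high arm and 8 of them an unadjusted p under 0.05, against 61.9% and 2.01% of all genes tested. Acan, which encodes the proteoglycan aggrecan, lay at -4.08, -3.57 and -4.16 on 50 kBq replicates 1 and 3 and 500 kBq replicate 3, and between -10.00 and -8.32 on the other 12 arrays. Col2a1, the main collagen of cartilage, lay at -2.21, -1.92 and -2.33 on the same 3 arrays and between -6.14 and -5.25 on the other 12. For Chad, the matrix protein chondroadherin, the 3 arrays lay between -0.28 and 0.23 and the other 12 between -6.47 and -4.03. Cnmd (chondromodulin), Matn1 (a matrilin), Hapln1 (a link protein) and Comp separated the same 3 arrays from the other 12. Acan and Hapln1 were well above background on those 3 arrays and on 0 of the other 12 or of the controls. They passed the filter through high-activity arrays alone, so their direction adds no support to the counts above. The same holds for Matn1, which was well above background on those 3 arrays and on 1 of the other 12. Since Acan and Hapln1 were measured on only 3 of the 8 high-activity arrays and on no low-activity array, no fold change between the arms is given. Their log2 means, which include signals below background, were -6.95 against -9.32 for Acan and -7.20 against -9.23 for Hapln1.

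The mean deviation of the cartilage list was 2.72, 3.09 and 2.78 on the 3 arrays, -1.15 to -0.34 on the other 12 and -0.75 to -0.71 in controls. Among the other 30 arrays of the series 2 lay above 2.72, at 3.18 and 4.21, both from young rats given 50 kBq and killed 3 months after injection, with all 10 genes well above background on each. The 3 arrays were scanned on 3 different dates. Without 50 kBq replicate 3 alone the cartilage median was 1.13. Without all 3, an alternative chosen after seeing the data, the cartilage median was 0.34, with 9 of 10 genes above 0. At an unadjusted p under 0.05, 0 were then higher and 1 was lower. The 3 arrays were left out for being high in these genes, so the fall of the median is by construction. The 3 arrays also bore on counts over all probes: without them 1007 probes were higher and 207 lower, of which 306 and 88 were among the 563 and 150 above, and 1 unnamed probe, A_64_P126032, was called (log2 difference 2.00, limma adjusted p = 0.00930).

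**Figure D4:**
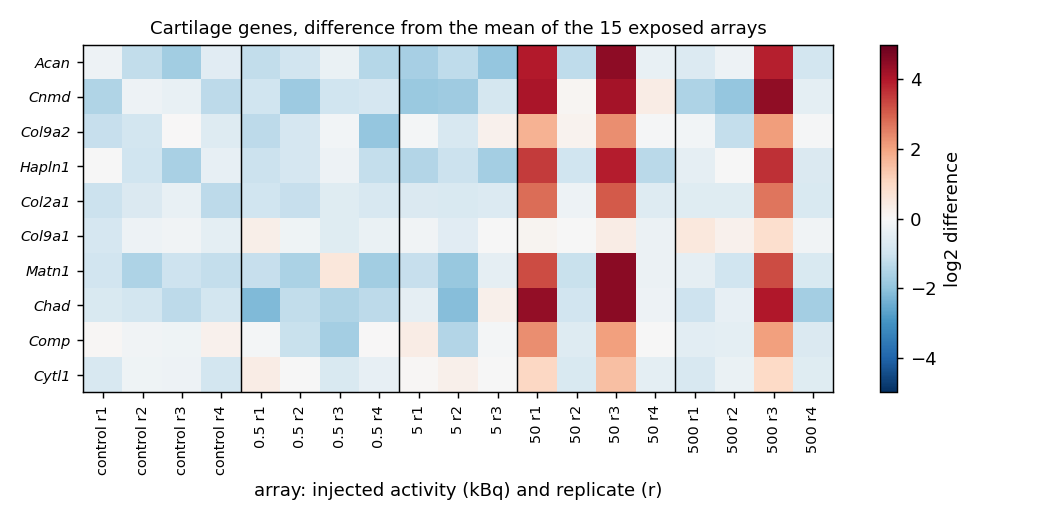
Log2 difference of each tested cartilage gene (rows) from its mean over the 15 exposed arrays, in each array (columns, grouped by injected activity in kBq, controls first). Red columns are 50 kBq replicates 1 and 3 and 500 kBq replicate 3, where 9 of the 10 genes stand out, and no control or low-activity array is like them.

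Genes of airway and ciliated epithelium, the lining of the trachea, had a median of 0.65. All 8 tested had a higher mean in the high arm, as had 61.9% of all genes tested. The ciliary genes Tekt1 and Cfap126 had an unadjusted p under 0.05 (log2 differences 0.65 and 0.53, standard errors 0.26 and 0.24), where 2.01% of all genes were higher at that p. The list stood highest on 50 kBq replicates 1, 2 and 3, at 1.21, 1.10 and 1.69, and between -1.02 and 0.19 on the other 12 arrays, with controls at -0.95 to 0.49. Of these 3 arrays, replicates 1 and 3 were also high in cartilage genes. Without the 3 arrays high in cartilage genes, the airway median was 0.42 and 5 of 8 genes were above 0, and without 50 kBq replicate 3 alone it was also 0.42. Squamous epithelial genes were high on 1 array of each arm, 0.5 kBq replicate 4 (5.02) and 50 kBq replicate 2 (4.95), while the remaining 13 arrays lay between -1.49 and 0.20. Their median difference was -0.01 (15 tested), and Tp63, a transcription factor of basal epithelial cells, was higher by 0.41 (standard error 0.18, exact permutation p = 0.0472). That Tp63 probe did not follow the list: on 0.5 kBq replicate 4 it lay at 1.75, inside the range of the other low-activity arrays. A second, dimmer probe of Tp63 differed by 0.23 (standard error 0.98). The squamous median was 0.95 without 0.5 kBq replicate 4 and -0.71 without 50 kBq replicate 2. Squamous genes were also high in 2 of the 4 controls, at 4.20 and 3.23.

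Macrophage genes stood at the other end, with a median of -0.38 and all 12 tested genes below 0, where 61.9% of all genes tested lay above 0. The mean deviation of the list was -0.66 to 0.19 in the high arm, -0.60 to 0.84 in the low arm and -0.44 to 0.10 in controls. C1qb, a subunit of complement C1q made by tissue macrophages, lay between 2.39 and 3.53 in the high arm (median 3.00) and between 2.57 and 4.02 in the low arm (median 3.59). Cd68, a lysosomal protein of macrophages, lay between -1.27 and -0.39 (median -1.04) against -0.90 and 0.08 (median -0.67). The arms overlapped for both, with log2 differences of -0.52 and -0.39 (standard errors 0.22 and 0.17, exact permutation p = 0.0452 and 0.0455). These were the 2 genes of the list with an unadjusted limma p under 0.05, where 0.838% of all genes were lower at that p. Lyz2, C1qc and Adgre1, the F4/80 antigen, differed by -0.33, -0.47 and -0.42 (standard errors 0.16, 0.25 and 0.25). The median of the list was -0.70, -0.01 and -0.27 within scans 1, 2 and 3, and between -0.55 and -0.27 with each array left out. Without the 3 arrays high in cartilage genes it was -0.43 with all 12 genes below 0, and 0 genes had an unadjusted p under 0.05. MHC class II genes had 7 of 8 below 0 and a median of -0.13, with 0 at a p under 0.05.

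All 26 tested genes of the mitochondrial respiratory chain had a higher mean in the high arm, where 61.9% of all genes had one, but by little. The median was 0.18, the differences lay between 0.08 and 0.29, and 0 had an unadjusted p under 0.05. Uqcrfs1, the iron-sulfur subunit of complex III, differed by 0.29 with a standard error of 0.29. The direction turned without the 3 arrays high in cartilage genes, to a median of -0.03 with 8 of 26 above 0. The list was lowest on 500 kBq replicate 4 (-0.84), which was also lowest for slow-fibre and fast-fibre muscle genes (-2.73 and -2.44). Without that array the medians were 0.30, 0.74 and 0.28.

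Capillary endothelium had 2 of 14 genes higher at an unadjusted p under 0.05 and a median of 0.11. Kdr, the main receptor of VEGF, lay between 1.63 and 2.85 (median 2.25) in the high arm and between 1.68 and 2.15 (median 1.86) in the low arm, a log2 difference of 0.38 (standard error 0.14, exact permutation p = 0.0152). Cd300lg, a receptor of endothelial cells, lay between -2.08 and 0.26 (median -1.17) against -6.55 and -0.49 (median -4.72). Its log2 difference was 2.85 (standard error 0.88, exact permutation p = 0.0123), and it was 5.15, -0.16 and 1.40 within the scans. Within the low arm 4 of 7 arrays lay between -6.55 and -4.72 and the others between -2.22 and -0.49, and 2 of the 4 controls lay at -5.61 and -4.63. A second probe of Cd300lg differed by 0.84 (standard error 0.31). Pecam1, Cdh5 and Tie1, general endothelial markers, differed by -0.04, 0.16 and -0.05 (standard errors 0.12, 0.17 and 0.15). Of the mast cell list, Gata2 and Kit were higher by 0.34 and 0.40 (standard errors 0.10 and 0.14) (exact permutation p = 0.00186 and 0.00901). They were its 2 genes with an unadjusted limma p under 0.05, where 2.01% of all genes were higher at that p. Of the 10 genes tested in the list 7 lay above 0 and 3 below, the lowest at -0.23, and the median was 0.10.

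Among lists of hormone and tissue types, parathyroid genes had a median of 0.60 (5 tested, 4 above 0), slow-fibre and stress-responsive muscle 0.29 (14 tested), brown adipocyte 0.27 (8), Schwann cell 0.17 (9), white adipocyte 0.11 (15), fast-fibre muscle -0.04 (15), C cell 0.03 (17), T and B lymphocytes -0.02 (14) and thyrocyte transcription factors -0.01 (4). None of their genes had an unadjusted p under 0.05 except Cxcr5 in the lymphocyte list. Cxcr5 was well above background on 4 high and 0 low arrays, so it passed the filter through the high arm alone. In the thyroid hormone metabolism and action list (11 tested, median 0.04) Klf9, a transcription factor induced by thyroid hormone and glucocorticoids, was lower by -0.32 (standard error 0.12, exact permutation p = 0.0148). Without the 3 arrays high in cartilage genes the parathyroid median was 1.75, and 3 of 5 genes were higher at an unadjusted p under 0.05. In that fit 1007 of all 23116 probes were higher. The arrays left out were the lowest of the high arm for this list (-0.35, -1.73 and -1.14). Leaving them out thus raises the high arm by construction, so its direction is no result. Pth, which encodes parathyroid hormone, then differed by -0.10 (standard error 0.19) and Tbx1 by 0.005 (0.50). Single arrays moved several of these medians. That of the parathyroid list was 0.32 without 50 kBq replicate 4 and 1.15 without 500 kBq replicate 3, that of slow-fibre muscle 0.08 without 5 kBq replicate 2, and that of the C cell list -0.36 without 0.5 kBq replicate 4 and 0.38 without 500 kBq replicate 2.

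Lists of radiation and stress responses had medians near 0. The median was -0.005 for p53 targets (19 tested), where Ei24 was higher by 0.32 (standard error 0.12) and 0 were lower at an unadjusted p under 0.05. Its largest differences, named after their values were seen, were those of Ccng1 and Gdf15, -1.03 and -0.998 with standard errors of 0.73 and 0.71. DNA repair and damage signalling genes had a median of 0.04 (21 tested), cell proliferation -0.11 (23), antioxidant and redox enzymes 0.05 (22), heat shock proteins 0.06 (15), interferon-stimulated genes -0.02 (22), cholesterol synthesis 0.06 (19) and cytosolic ribosomal proteins 0.03 (22), each with 0 genes at a p under 0.05. Immediate early genes had a median of 0.08 (20), with Zfp36, an mRNA-decay protein, lower by -0.77 (standard error 0.35), and extracellular matrix and fibrosis genes one of 0.03 (18), with Timp1, an inhibitor of metalloproteinases, lower by -0.38 (0.17). VEGF ligands had a median of -0.05 (4). The plot of the 33 lists shows that members of most lists scattered on both sides of the median of all genes.

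**Figure D5:**
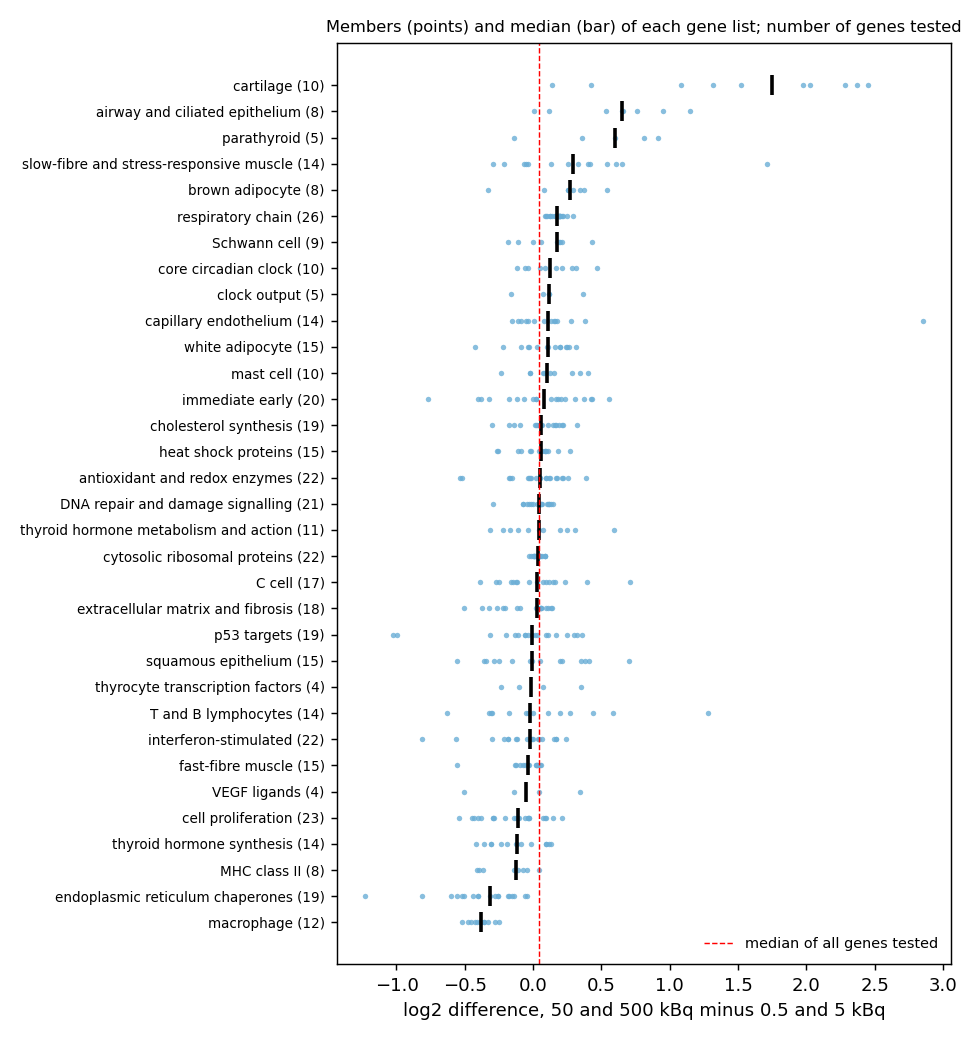
Log2 difference between the high and low arm (x axis) of each tested member (points) of the 33 gene lists (y axis, with the number of genes tested), with the list median (bar) and the median of all 12295 genes tested (dashed line, 0.04). The cartilage median lies at 1.75 and the macrophage and chaperone medians at -0.38 and -0.31.

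Core circadian clock genes had a median of 0.12 (10 tested) and clock output genes of 0.11 (5), with 0 at a p under 0.05. Dbp, a transcription factor driven by the clock, lay between 1.70 and 3.48 in the high arm (median 2.49) and between 1.59 and 3.78 in the low arm (median 1.71), a log2 difference of 0.37 (standard error 0.37) with overlapping arms. Its step from 50 to 500 kBq was 1.16 (exact permutation p = 0.0286, the smallest that 4 against 4 arrays allow), and its controls lay between 3.59 and 4.56. The E-box CACGTG, which the clock proteins bind, stood in 5 of 17 promoter windows of both lists (29.4%) and in 1872 of 33469 windows of all genes (5.59%). Both lists were chosen for clock function, so this share is not independent of the choice of their members. Here too a match is not evidence of use in these thyroids.

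A set of 11 transcripts was taken from those that the study names, and the arms overlapped for the 10 that were tested. RT1-Bb, an MHC class II beta chain, differed by -0.41 (standard error 0.27), and its second probe by 0.18 (0.25). Vegfb was well above background on 5 of 8 high and 4 of 7 low arrays, with a log2 difference of 0.34 and a standard error of 2.51. It was dim on 3 of 4 arrays at 50 kBq (-9.55 to -9.22), with the other at 0.93, and lay between -0.25 and 1.02 at 500 kBq, a step within the high arm with an exact permutation p of 0.114. Calca and Calcb, which encode calcitonin and a related peptide, differed by -0.12 and 0.08 (standard errors 0.55 and 0.99), Dio2, the deiodinase that activates thyroid hormone, by 0.59 (0.64), Ankrd2, a muscle ankyrin protein, by -0.29 (0.53), Krt7, a simple epithelial keratin, by -0.19 (0.74) and Slc25a5, the mitochondrial ADP/ATP carrier, by 0.12 (0.24). Afp had no tested probe.

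Steps within the arms were tested in a fit with 1 mean per activity. Between 50 and 500 kBq 0 transcripts were called, and 492 probes (2.13%) had an unadjusted p under 0.05. Between 0.5 and 5 kBq 0 were called, and 437 probes (1.89%) had one. The cartilage median was -0.97 for 500 minus 50 kBq, since 2 of the 3 arrays high in these genes were at 50 kBq, and 0.06 for 5 minus 0.5 kBq.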

How the data were processed

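Total thyroid RNA was hybridised to Agilent rat gene expression arrays with 1 colour. The authors deposited the Agilent Feature Extraction output of each array, whose processed signal is an intensity with background subtracted and no scaling between arrays, together with median spot and background intensities and per-spot marks of 0 or 1 for signal above background, saturation and outliers. The submitters' processing notes name Partek, with no version. The deposited table of the authors' fold changes, on 861 probes with columns named by letters, was not used.

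Each array held 62976 spots, 4259 of them controls, which were dropped together with spots marked as outliers. The log2 signal of each remaining spot was set relative to their 75th percentile on that array, and a probe took the average of its spots. This scaling assumes that the 75th percentile is the same in every thyroid. Of 30367 probes, 17998 were matched to a symbol through RefSeq accessions. A probe was tested if it stood well above background on 3 or more of these 15 arrays. The fit used limma 3.58.1 in R 4.3.3 with 1 mean per arm and Benjamini-Hochberg adjustment, and 56 missing probe values were left out of the fit. Calls used the study's cut-offs, 0.01 for the adjusted p and 1.5 for the fold change. Single genes were tested by two-sided exact permutation over the 15 arrays. The fit was tested on simulated data. Figures were drawn with Python 3.11.15 and matplotlib 3.10.9.

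A gene was read on its brightest probe. The genes named were the called probes, the 8 genes in each direction with the smallest p above 1.5-fold, 11 genes from those that the study names, 2 of each gene list and 5 thyroid genes, 1 of which is not reported here. The 33 lists hold 547 genes, of which 468 were tested. A list's mean deviation is the mean over its tested genes of the log2 signal minus its mean over the 15 arrays. The members, lists and groups were chosen with earlier results of these data known, so lists are described by counts and medians with no test. Alternatives covered the scan, slide and replicate number as blocks, other scalings, backgrounds and filters, array weights, other sets of arrays and each array left out. Normexp used median spot signals.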

Additional observations from a re-analysis of the deposited data

Results flagged for a closer look

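Within an arm, the array farthest from the others stood apart by more than the limit of Dixon's test in 5 of 72 checks (36 named genes in 2 arms), where chance alone would mark about 1 in 20. Calca was low on 500 kBq replicate 2 in the high arm, at a log2 signal of 3.31 with the others between 5.99 and 7.34, and on 0.5 kBq replicate 4 in the low arm, at 4.60 with the others between 6.27 and 7.29. Ankrd2 was low on 500 kBq replicate 4, at -5.60 with the others between -3.46 and -1.76. RT1-Bb was low on 0.5 kBq replicate 4, at 0.16 with the others between 1.41 and 2.10. Krt87 was high on 500 kBq replicate 3, at -4.87 with the others between -6.72 and -5.93.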

How the results depend on the processing

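No transcript was called at high against low activity under any alternative but 2: with the slide as a block 1 was called (the unnamed probe A_64_P137369, log2 difference 9.36, against 3.49 at an unadjusted p of 0.0532 without the block), and without the 3 arrays high in cartilage genes 1 was called. With each array left out the count stayed at 0, and the adjusted p of Arrdc2 lay between 0.0120, without 5 kBq replicate 1, and 0.342. With array weights 3 probes, those of Kcna6 and Pnck and 1 unnamed, had an adjusted p under 0.05, and 3527 probes were higher and 1710 lower at an unadjusted p under 0.05. For the steps within the arms the count was 0 throughout, though 3 probes had an adjusted p under 0.05 between 50 and 500 kBq without 500 kBq replicate 2. Against 563 probes higher and 150 lower at an unadjusted p under 0.05, the counts were 857 and 159 with no filter on dim probes, 289 and 108 with all 49 arrays in one fit, 658 and 272 with the slide as a block, and from 345 to 979 higher (without 5 kBq replicate 2 and 500 kBq replicate 4) and 103 to 378 lower (without 0.5 kBq replicate 2 and 500 kBq replicate 4) with each array left out. Against 492 probes in either direction between 50 and 500 kBq and 437 between 0.5 and 5 kBq, the counts were 3422 and 2192 with no filter on dim probes, 1350 and 709 with dim signals floored, 2898 and 1387 with array weights, and, with each array left out, 326 to 1669 (without 500 kBq replicates 1 and 4) and 169 to 1488 (without 5 kBq replicate 1 and 0.5 kBq replicate 3). The replicate numbers were not shown to pair the arrays: over 21 same-numbered pairs of arrays of different groups the correlation of deviations had a median of 0.02 (range -0.36 to 0.46). With a replicate block 599 probes were higher and 141 lower, and 0 were called. Among named genes, quantile normalization turned Tg to -0.023, and the scan as a block turned Calca to 0.015, Slc5a5 to -0.059 and Pax8 to -0.014. With each array left out the log2 difference crossed 0 for Vegfb (-0.63 to 1.25), Ankrd2 (-0.61 to 0.046), Calca (-0.43 to 0.32), Calcb (-0.48 to 0.75), Krt7 (-0.63 to 0.16), Slc5a5 (-0.12 to 0.29) and Pax8 (-0.23 to 0.21). The median of 16 of the 33 gene lists also crossed 0. The causes were not tested.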

Other observations

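Several genes lower at high activity are known targets of glucocorticoids. A list of 16 such genes was written after the values of Cebpd, Fkbp5, Errfi1, Klf9 and Zfp36 had been seen, so it has no test. All 16 were measured, and 14 had a lower mean in the high arm, where 61.9% of all genes had a higher one. The median log2 difference was -0.32 against 0.04 over all genes. At an unadjusted limma p under 0.05, 7 were lower and 0 higher, against 0.838% and 2.01% of all genes. Of the 7, 5 were the genes seen beforehand, so these counts hold them by choice. The rest were Ddit4, an inhibitor of mTOR signalling (-0.55, standard error 0.21), and Nfkbia, the inhibitor of NF-kappaB (-0.53, standard error 0.23). Ddit4 lay between -0.03 and 1.32 in the high arm and between 0.39 and 1.36 in the low arm, and Nfkbia between 0.23 and 1.69 against 0.66 and 1.79, so the arms overlapped for both. Other members had a p above 0.05. Tsc22d3, or GILZ, had -0.21 (standard error 0.14), Per1 -0.06 (0.16), while Sgk1 and Dusp1 lay higher, by 0.17 and 0.43 (0.14 and 0.28). The median was -0.40 without the 3 arrays high in cartilage genes and -0.34 without 0.5 kBq replicates 1 and 4, with 5 genes lower at an unadjusted p under 0.05 in each and, in the second, 1 higher. No gene of this list passed the adjusted threshold.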
